A study of Mus musculus with 32 samples.

Results

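Mouse embryonic stem cells that overexpressed a mutated CTCF were compared with cells of the overexpression control, both after degradation of the cells' own CTCF. All genes of the authors' normalised table of the overexpression experiment with a mean of at least 10 over its 12 libraries were included, which gave 13938 of the 14970 genes listed. The comparison rests on 4 of the 32 libraries of the series, 2 of mutated CTCF with IAA and 2 of control with IAA. All 12 libraries came from the line E14 with the genotype CTCF AID, in which CTCF carries an auxin-inducible degron and is destroyed when indole-3-acetic acid (IAA) is added. The control group with IAA (CTCF AID, overexpressed control) and the mutated group with IAA (CTCF AID, overexpressed CTCF mutant) were both labelled as treated for 12 h, with IAA at 500 uM per the treatment protocol. The other groups were the control without IAA, wild-type CTCF with and without IAA, and mutated CTCF without IAA. Neither the nature of the mutation, nor whether the added CTCF bears the degron, nor whether each line was 1 clone is given in the labels. Cells grew on gelatin in a serum-free medium with LIF and inhibitors of MEK and GSK3, and mRNA was sequenced. No label says that the 2 libraries of a group came from separate cultures, so the p-values measure only the spread between these libraries, which may be technical.

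CTCF is a zinc finger protein that binds a long DNA motif, halts cohesin there and so sets the ends of chromatin loops. It also sits at many promoters, where it can act on the gene next to it. It is best known for insulation between neighbouring domains, for the choice of clustered protocadherin promoters and for imprinted loci. The comparison asks which transcripts differ when an added, mutated form is present while the tagged protein is degraded.

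Values below are the authors' normalised counts, which can be set against each other for 1 gene across libraries but not between genes, since they are not divided by transcript length. The 12 library totals lay between 19073890 and 19546135, and replicate libraries correlated at 0.985 to 0.989 across genes on the log2 scale, a description with no p because genes are not independent. Titles and treatment labels disagree in 4 libraries, the 2 of mutated CTCF without IAA (label: treated) and the 2 of wild-type CTCF with IAA (label: untreated). Groups here follow the titles, and the 4 libraries of the main comparison have labels that match their titles. All 7 markers of pluripotent stem cells were listed, with summed levels of 92500 and 92700 in the control libraries with IAA and of 94700 and 95300 in the mutated ones. The summed markers of primitive endoderm, trophoblast, mesoderm and fibroblasts stayed at or below 229 in every library. The sums were higher and did not overlap in the mutated libraries with IAA for primitive endoderm (107 and 121 in the control with IAA, 169 and 201 with mutated CTCF), trophoblast (141 and 143, then 168 and 169) and fibroblasts (20.2 and 21.6, then 27.6 and 40.3). For mesoderm they overlapped (157 and 175, then 154 and 174). These sums rest on few genes. Over the 12 libraries, 2 of 6 primitive endoderm, 3 of 5 trophoblast and 1 of 5 fibroblast markers averaged at least 10. No marker of these types differed at an adjusted p under 0.05 (limma). An exact permutation test of 2 against 2 libraries cannot go below 0.333, so the lack of overlap is a description. What part these cell types had in the results was not tested. Sox17, Sox7, Gata3, Elf5, Tbx6, Mesp1, Col1a2, Col3a1 and Dcn were not listed. The neural markers, mostly Tubb3, summed to 2400 to 2480 in the control libraries with IAA and to 2720 to 2850 in the mutated ones. The neural markers Pax6 and Neurog2 were not listed. In bulk RNA fewer cells of a type and less RNA per cell cannot be told apart.

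Ctcf itself stood at 5185 and 5098 in the control libraries with IAA and at 11758 and 11590 in the mutated libraries with IAA. The groups did not overlap, and the log2 difference was 1.18 ± 0.03 (SE, adjusted p = 9e-09, limma). Untreated control libraries had 4134 and 4332, mutated libraries without IAA 9589 and 9712, and wild-type libraries with IAA 11631 and 11077. Every overexpressing library thus had more Ctcf transcript than any control library, with or without IAA, and mutated and wild-type CTCF with IAA differed by 0.04 ± 0.03 on the log2 scale (adjusted p = 0.61). The values do not separate the tagged from the added transcript, and transcript levels do not report the degraded protein.

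With mutated CTCF, 906 genes differed from the control under IAA at an adjusted p under 0.05 (limma with Benjamini-Hochberg adjustment over all genes tested), which is 6.5% of the genes tested. Of these, 580 were higher (4.16%) and 326 lower (2.34%). In all 906 the libraries of the 2 groups did not overlap, so non-overlap of a called gene adds no support. An unadjusted p under 0.05 was found for 2859 genes. Most differences were small: 631 of the called genes changed by less than 1.5-fold, and the median size was 0.36 on the log2 scale. At least 2-fold were 135, of which 100 were higher (0.717%) and 35 lower (0.251%). Called genes were of above-average level, with a median over the 12 libraries of 1590 for those higher and 705 for those lower, beside 427 for all genes. Protein-coding genes made up 97.4% of the higher and 97.9% of the lower genes and 89.9% of all genes tested. The count rests on all 4 libraries: leaving out 1 of them gave 366 to 497 calls, and with only these 4 libraries in the fit there were 552.

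**Figure D1:**
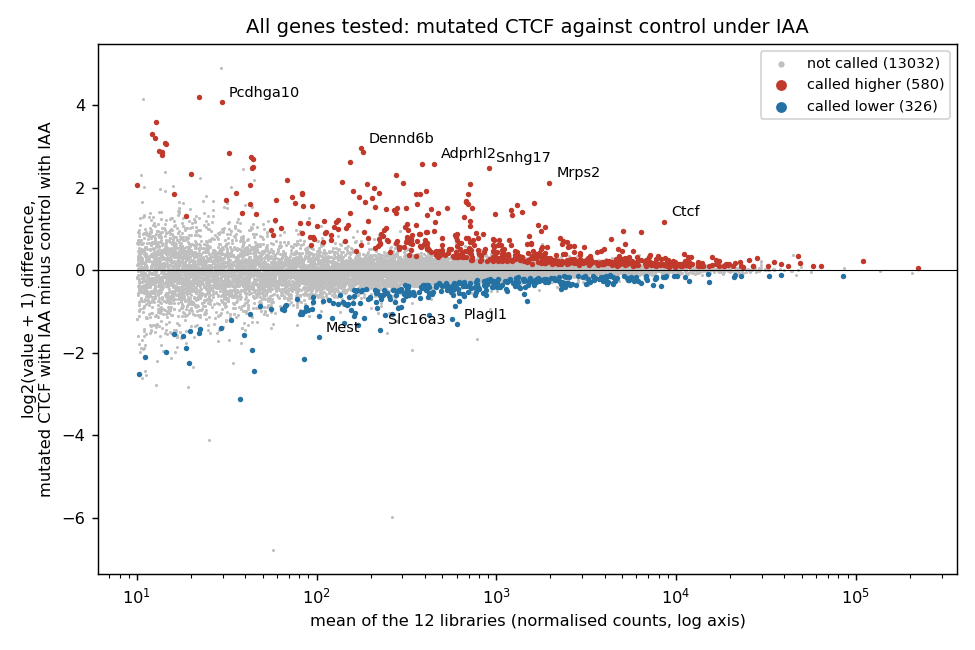
All 13938 genes, with the mean of the 12 libraries in normalised counts (log axis) against the log2(value + 1) difference of mutated CTCF with IAA minus control with IAA. The 580 red genes were called higher and the 326 blue genes lower. The rises reach further than the falls among genes of high level, with Mrps2 at 2.13 and Ctcf at 1.18.

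The 14 largest rises, taken among genes whose higher group averaged at least 100, ranged from 1.93 to 2.96 on the log2 scale. They were Dennd6b, Cc2d2a, Det1, Adprhl2, R3hcc1, Snhg17, Dph7, Tirap, Mrps2, Snx19, Tex261, Mob3b, Man2b2 and Tstd3. All 14 were lower in the control after IAA than before it. In that contrast 25.3% of all genes were called and 12.5% were lower. All 14 were also called lower at 12 h in the separate CTCF degradation table, beside 8.42% of all genes. As a percent of the untreated control, their levels were 7.43% to 23% in the control with IAA (median 15.1%) and 53.2% to 101% in mutated CTCF with IAA (median 82.0%). With wild-type CTCF and IAA they lay at 52.0% to 91.9% (median 74.9%). These comparisons share control libraries, so the percentages are set side by side as a description.

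Dennd6b, which encodes a guanine nucleotide exchange factor for a Rab GTPase, had 11.6 and 21.1 in the control libraries with IAA and 156 and 107 in the mutated ones, a log2 difference of 2.96 ± 0.26 (adjusted p = 6.6e-05, limma). Both mutated libraries lay above both controls but below the untreated control libraries, which had 238 and 203. A microRNA gene, Mir6958, lies within its exons on the same strand. Cc2d2a, a ciliary transition zone gene, stood at 17.0 and 18.9 against 147 and 130, a rise of 2.88 ± 0.19 (adjusted p = 5.3e-06, limma). Det1, a part of a ubiquitin ligase complex, stood at 20.5 and 33.5 against 172 and 162. Its rise of 2.63 ± 0.23 (adjusted p = 4.6e-05, limma) brought it to 96.5% of the untreated mean, and exons of 1700011D18Rik overlap it on the opposite strand.

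Adprhl2 (chr4:126316047-126321703 on GRCm38, GENCODE M21, as for the positions that follow) encodes the hydrolase that removes ADP-ribose from serine. It had 79.2 and 77.7 in the control libraries with IAA, 470 and 480 in the mutated ones and 582 and 545 in the untreated control. The replicates were close in every group, and the log2 difference of 2.58 ± 0.09 had an adjusted p of 6.3e-08 (limma). Mrps2 (chr2:28468066-28471178), a protein of the small subunit of the mitochondrial ribosome, had the highest level of the set: 467 and 497 in the control with IAA, 2075 and 2142 in mutated CTCF with IAA. Its log2 difference of 2.13 ± 0.05 (adjusted p = 6.8e-09, limma) left it at 89.6% of the untreated mean. Snhg17, a host transcript of small nucleolar RNAs, had 175 and 152 against 875 and 975, and Tex261 had 193 and 184 against 783 and 835. In each of these genes the 2 mutated libraries stood several-fold above the 2 controls.

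Dph7, which acts in the synthesis of diphthamide on elongation factor 2, was less even between replicates, with 50.4 and 47.9 in the control with IAA and 196 and 311 in mutated CTCF with IAA. Tirap, an adaptor of Toll-like receptors, had 24.4 and 41.0 against 138 and 147. Exons of Srpr overlap Tirap on the opposite strand, and those of Ccnc and Usp45 overlap Tstd3, so reads of these pairs may not be separable. Mob3b stood at 29.8 and 27.4 against 123 and 126 and reached the lowest share of the untreated level among the 14, at 53.2%. Snx19, a sorting nexin, reached the highest, with 318 and 398 against 361 and 347 in the untreated control. Leaving out any 1 of the 4 libraries lost the call of none of the 14 genes.

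**Figure D2:**
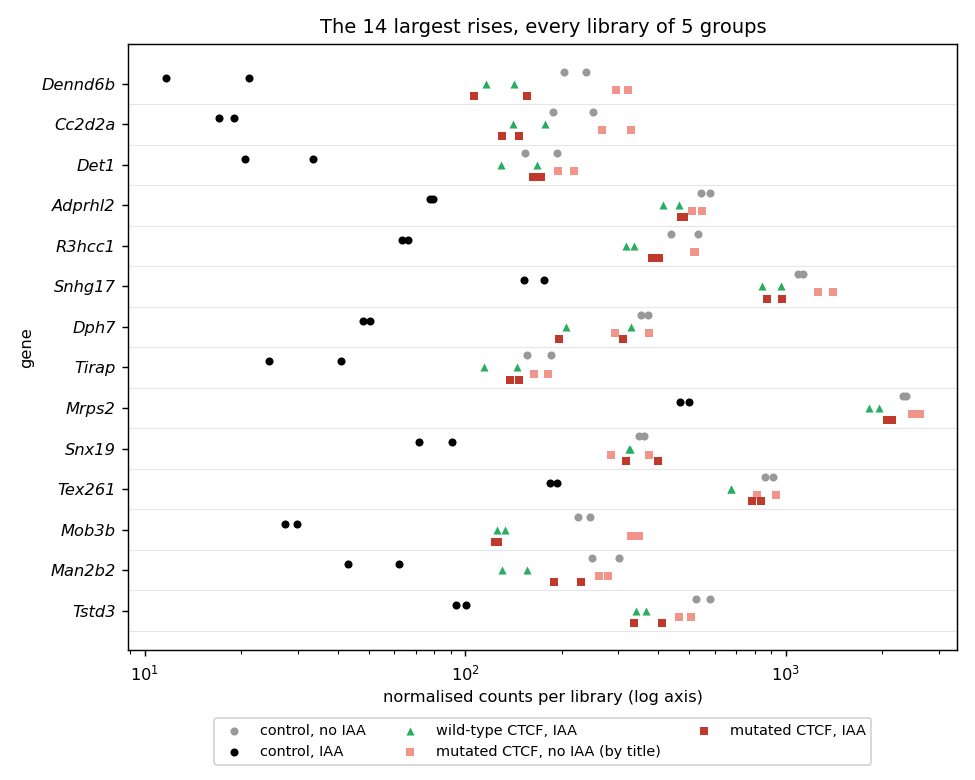
Normalised counts (log axis) of the 14 largest rises, 1 point per library in 5 groups of 2 libraries, by gene. Control libraries with IAA (black) lie apart at the left, and mutated CTCF with IAA (red squares) lies near wild-type CTCF with IAA (green triangles).

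The promoters of these genes are shown because CTCF binds DNA in a sequence-specific way and all 14 were lower after its degradation. RefSeq promoter windows (GRCm38.p6, 250 bases before to 50 after a start) matched 10308 of the 13938 genes by symbol. The string searched on both strands, called the core string below, holds central letters of the known CTCF motif: CC, 3 bases of any kind, AG, 2 bases of any kind and GGC. Another 5 strings that overlap it were searched too: the core string with CCA or with CCNC at its start, AGNNGGC followed by any base and CT, AGGGGGC and AGGTGGC. Of the 12 largest rises with a window, 5 held a match, and of the 13 largest falls with a window 1 did. The 5 matches follow, 5′ to 3′ in the direction of the string, with the match in capitals.

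Dennd6b: ccgggtcggCCAGTAGGTGGCtagtgtggc
Det1: gcagcgcttCCGGTAGCGGGCggaaacccg
Adprhl2: gactccgggCCACAAGGGGGCgctgtgggg
Dph7: gtcctccagCCTGTAGGCGGCgcagcgtct
Man2b2: gcattcctgCCGACAGGCGGCgccgcgggt

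The match lay 50 bases before the start in Adprhl2, 43 in Dph7, 27 in Det1 and 7 in Man2b2, in each case on the strand of the gene and measured at its centre. In Dennd6b it lay 174 bases before the start, on the opposite strand. The whole windows of Adprhl2 (chr4:126321654-126321953, minus strand), Dph7 (chr2:24962172-24962471, plus strand) and Mrps2 (chr2:28467816-28468115, plus strand) are given on the strand of the gene. Mrps2 rose by a like amount with no exact match in its window. The search did not take near matches, so a missing match does not show that a CTCF site is absent.

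Adprhl2: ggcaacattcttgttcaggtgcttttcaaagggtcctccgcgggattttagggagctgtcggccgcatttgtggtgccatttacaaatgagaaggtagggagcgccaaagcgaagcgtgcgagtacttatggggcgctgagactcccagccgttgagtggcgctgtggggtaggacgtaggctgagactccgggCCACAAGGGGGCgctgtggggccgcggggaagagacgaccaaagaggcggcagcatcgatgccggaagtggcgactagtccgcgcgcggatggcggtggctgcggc
Dph7: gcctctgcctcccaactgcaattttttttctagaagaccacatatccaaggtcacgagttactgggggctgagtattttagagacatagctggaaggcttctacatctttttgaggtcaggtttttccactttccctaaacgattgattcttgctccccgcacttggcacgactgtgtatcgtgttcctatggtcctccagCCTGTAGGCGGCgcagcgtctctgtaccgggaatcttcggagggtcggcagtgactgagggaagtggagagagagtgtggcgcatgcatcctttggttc
Mrps2: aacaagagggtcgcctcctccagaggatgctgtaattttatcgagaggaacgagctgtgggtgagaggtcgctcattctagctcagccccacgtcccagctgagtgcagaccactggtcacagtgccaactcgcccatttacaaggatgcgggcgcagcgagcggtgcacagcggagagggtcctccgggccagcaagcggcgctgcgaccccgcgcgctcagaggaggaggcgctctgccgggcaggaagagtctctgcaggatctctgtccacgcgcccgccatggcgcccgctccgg

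Over all genes with a window, 15.1% held a match of the core string, and 8.61% of all RefSeq windows of this length did. The share was 45.1% among genes at least 2-fold higher with mutated CTCF (32 of 71), 24.2% among genes higher by less than 2-fold and 16.3% among genes that were lower. Among genes at least 2-fold lower it was 10.3% (3 of 29). The median GC content of the windows was 60.7% in the genes at least 2-fold higher, 62.0% in those higher by less, 61.7% in those that were lower, 64.7% in those at least 2-fold lower and 60.8% in all. Of 38 matches in the genes at least 2-fold higher, 30 (78.9%) lay between 100 bases before and 50 after the start, beside 61.1% of matches in all genes tested, and 27 of the 38 were on the strand of the gene, beside 946 of 1718 in all genes tested. In the same genes the core string starting with CCA gave 16.9% (3.31% in all genes) and with CCNC 23.9% (4.65% in all). The string that ends in CT also gave 23.9% (8.7% in all), AGGGGGC 36.6% (19.3% in all) and AGGTGGC 9.86% (8.03% in all). A match is a description of letters and does not show binding, and a missing match does not show its absence.

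Genes lost with CTCF were taken from the separate CTCF degradation table, whose libraries the overexpression table does not share. There, 12 h of IAA lowered 435 genes by at least 2-fold (called by the same test), and 410 of them were tested here. With mutated CTCF under IAA, 110 of the 410 were higher than in the control (26.8%, beside 4.16% of all genes), 6 were lower and 294 were not called. The median log2 difference of the 410 was 0.30, 65.9% were above 0 (all genes 48.9%), and 74 were at least 2-fold higher. With wild-type CTCF and the same control libraries, 121 were higher and 7 lower (3.98% and 2.27% of all genes, 6.26% in either direction). Against the untreated control, 109 of the 410 were lower in mutated CTCF with IAA (13.2% of all genes). In the control of this experiment, IAA lowered 185 of the 410 and raised 26 (12.5% and 12.8% of all genes). The other members had no called change with IAA there, so a member not called higher need not have failed to recover.

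Read the other way, 91 of the 100 genes at least 2-fold higher with mutated CTCF were tested in the CTCF degradation table, and 76 of these (83.5%) were called lower there at 12 h, beside 8.42% of all genes. Of all 570 higher genes tested there, 38.8% were lower in that table. In the list of 410 genes, windows with a match of the core string made up 38.2% for the genes higher here (34 of 89) and 19.5% for those not called higher (43 of 220). The lists and this split were chosen with results of these data known, so the shares are descriptions.

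**Figure D3:**
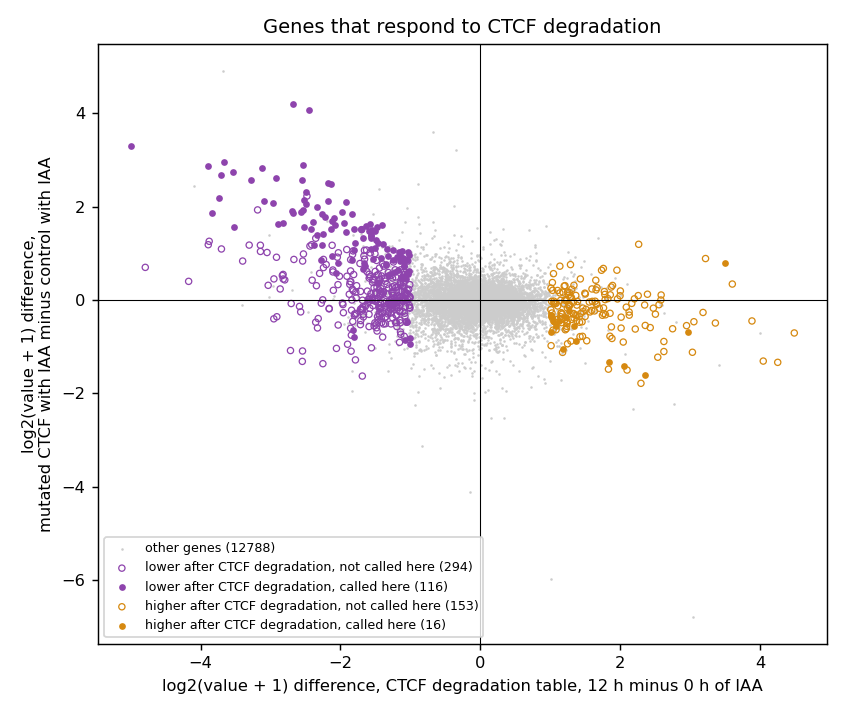
Each point is a gene in both tables, with the log2(value + 1) difference of 12 h minus 0 h in the CTCF degradation table against that of mutated CTCF with IAA minus control with IAA. Filled points are list members called here (116 of the 410 genes lower after degradation, 16 of the 169 higher), open points are members not called.

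Genes that rose on CTCF degradation were also followed. Of 174 such genes (called and at least 2-fold at 12 h), 169 were tested here, 15 were lower with mutated CTCF (8.88%, beside 2.34% of all genes), 1 was higher, and the median log2 difference was -0.23, with 29.6% above 0. In the control of this experiment, IAA raised 86 of the 169 and lowered 6 (12.8% and 12.5% of all genes). Against the untreated control, 76 of the 169 were higher in mutated CTCF with IAA (14.1% of all genes). With wild-type CTCF and IAA, 28 were lower than in the control with IAA (2.27% of all genes). The count of 15 fell to between 7 and 9 when 1 library was left out.

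The clearest of these was Ocel1, with 406 and 412 in the control libraries with IAA, 165 and 161 in the mutated ones and 80.8 and 124 in the untreated control. Ocel1 fell by 1.32 on the log2 scale (SE 0.18, adjusted p = 0.0013, limma) to a level between the treated and the untreated control, and exons of Nr2f6 overlap it on the opposite strand. Lxn, which encodes the carboxypeptidase inhibitor latexin, stood at 524 and 477 against 242 and 240, and at 189 and 204 without IAA. Serpinb9, an inhibitor of granzyme B, had 426 and 449 in the control with IAA and 272 in each mutated library, far above the untreated 80.4 and 77.4. Tgfbr3, a TGF-beta co-receptor, had 841 and 894 against 633 and 545. In these 4 genes the mutated libraries lay below the controls with IAA and above the untreated ones. Ccdc136 did not share this order: it had 964 and 856 in the control with IAA and 536 and 458 in the mutated libraries, which overlapped the untreated 501 and 466. Exoc3l2 had 419 and 432 against 287 and 243, and 194 and 129 without IAA. The calls of Serpinb9 and Tgfbr3 were lost in 3 of 4 fits that left out a library and that of Exoc3l2 in all 4.

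The 14 largest falls ranged from -1.62 to -1.05 and were less uniform than the rises. They were Mest, Slc16a3, Ocel1, Plagl1, Bnc2, Bnip3, Xlr5b, Trim7, Idua, Stc2, A2m, Efhc2, Mertk and Lxn. In the control, 5 of the 14 rose with IAA and none fell (12.8% and 12.5% of all genes), and 3 were called higher at 12 h in the CTCF degradation table (9.59% of all genes). Against wild-type CTCF with IAA, 5 of the 14 were lower, beside 1.18% of all genes. The 14 falls were chosen by the difference between mutated CTCF and control with IAA. The counts in the control and against wild-type CTCF reuse those libraries and are a description. The calls of Mest, Bnc2, Idua, Stc2 and Mertk were lost when 1 or another of the 4 libraries was left out, that of Bnc2 in all 4 cases.

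Mest and Plagl1 are imprinted genes expressed from the paternal copy, the first a hydrolase-like protein and the second a zinc finger factor. Mest (chr6:30723547-30748465) had 207 and 264 in the control libraries with IAA and 77.5 and 73.3 in the mutated ones, and fell by 1.62 on the log2 scale (SE 0.29, adjusted p = 0.0075, limma). It had 56.2 and 62.9 with wild-type CTCF and IAA, and 51.0 and 71.8 with mutated CTCF but no IAA, so every overexpressing library lay below every control library. Plagl1 (chr10:13060504-13131694) had 886 and 933 against 411 and 325, and 485 and 397 in mutated CTCF without IAA, and its difference from control was the same with and without IAA (log2 difference of the differences 0.00, adjusted p = 1, limma). Exons of Copg2 overlap Mest on the opposite strand.

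Xlr5b and Efhc2, both on the X chromosome, had the same pattern. Efhc2 stood at 601 and 577 in the control with IAA, 262 and 292 in mutated CTCF with IAA, and 311 and 308 in mutated CTCF without IAA. Xlr5b stood at 284 and 296 against 133 and 125, with 146 and 119 without IAA. For these 4 genes the difference from control was called without IAA too, and no change of that difference with IAA was called. Xlr5b belongs to a family of near-identical copies, so its level is uncertain.

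**Figure D4:**
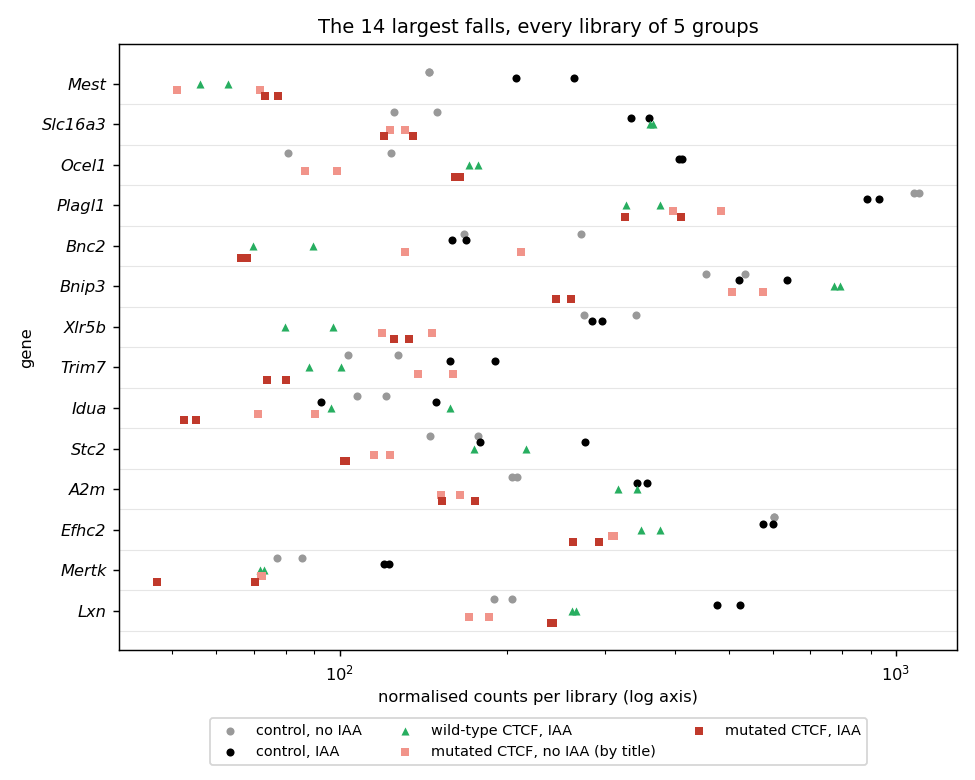
Normalised counts (log axis) of the 14 largest falls, 1 point per library in 5 groups of 2 libraries, by gene. For Mest, Plagl1, Xlr5b and Efhc2 the mutated libraries lie low with and without IAA, while for Bnip3 the mutated libraries with IAA (red) lie apart from the other 4 groups.

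Slc16a3 and Bnip3 had another pattern. Slc16a3 (chr11:120948480-120960868), which encodes a lactate exporter, had 333 and 359 in the control with IAA, 135 and 120 in mutated CTCF with IAA, and 365 and 361 in wild-type CTCF with IAA. Against the control it fell by 1.44 on the log2 scale (SE 0.13, adjusted p = 8.1e-05, limma). Against wild-type CTCF it fell by 1.5 (adjusted p = 0.00039, limma), and the level was that of the untreated control, at 150 and 125. Bnip3 (chr7:138890836-138909519, with exons of Gm45507 on the opposite strand), a mitophagy receptor induced by low oxygen, had 522 and 636 against 261 and 245. With wild-type CTCF and IAA it had 792 and 774, and the mutated libraries with IAA lay below every other library of the table.

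Both genes belong to a list of hypoxia and glycolysis genes, of which 27 were tested. Of these 14 were lower with mutated CTCF under IAA than in the control (51.9%, beside 2.34% of all genes), none was higher (limma, also at an unadjusted p under 0.05, where 0 were higher and 17 lower), and the median log2 difference was -0.21 (all genes -0.0047). The members called were Slc16a3, Bnip3, Egln3, Aldoc, Egln1, Vegfa, Ddit4, Ndrg1, Tpi1, P4ha1, Ldha, Hk2, Aldoa and Pgk1. Egln3 and Egln1 encode oxygen-sensing prolyl hydroxylases, Vegfa an angiogenic growth factor, and Aldoc, Tpi1, Ldha, Hk2, Aldoa and Pgk1 enzymes of glycolysis or lactate formation. Vegfa differed by -0.61, Egln1 by -0.62 and Tpi1 by -0.32, while the abundant Aldoa and Pgk1 differed by -0.15 and -0.13. Against wild-type CTCF with IAA, 18 of the 27 were lower (1.18% of all genes were) and none higher, with a median of -0.43.

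In wild-type CTCF with IAA, 11 of these 27 genes were higher than in the control with IAA and none lower (3.98% and 2.27% of all genes). Without IAA, 6 were higher and 2 lower in mutated CTCF than in the control (3.31% and 2.24% of all genes, 5.55% in either direction). The difference from control changed with IAA for 10 of the 27, downwards for 9 (0.581% of all genes). Aldoc had 274 and 309 in the control with IAA, 147 and 161 in mutated CTCF with IAA and 276 and 300 in wild-type CTCF with IAA, so that the mutated libraries lay below both other pairs. Egln3 had 115 and 131 against 57.7 and 69.0, with 154 and 127 in wild-type CTCF, and lost its call in 2 of 4 fits that left out a library. The list had 8 to 10 lower members when 1 library was left out, and 5 when groups were formed by the treatment label; whether culture density or oxygen differed between dishes was not tested.

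The integrated stress response list, the targets of ATF4 among them, had 8 of 22 members lower and none higher (2.34% and 4.16% of all genes), with a median of -0.16 (at an unadjusted p under 0.05, limma gave 10 lower and 3 higher). They were Stc2, Chac1, Trib3, Nupr1, Cth, Atf4, Phgdh and Shmt2. Apart from Stc2 the differences were small: Trib3 had 943 and 904 in the control with IAA against 741 and 760, and Nupr1 790 and 841 against 664 and 679. Without IAA, 7 of the 22 were lower and 1 higher with mutated CTCF (2.24% and 3.31% of all genes). The count of 8 fell to 1 or 2 when any 1 library was left out, so it depends on each of the 4.

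Clustered protocadherins encode surface proteins whose promoters are chosen through CTCF-anchored loops, and 15 of the 58 on the list were tested. With mutated CTCF under IAA 10 of the 15 were higher and none lower (4.16% and 2.34% of all genes), all 10 from the gamma cluster (limma; 10 higher and 1 lower at an unadjusted p under 0.05). Their levels were low. Pcdhga2 had 0.921 and 0 in the control with IAA, 25.2 and 23.9 in mutated CTCF with IAA and 43.6 and 20.9 without IAA in the control. Pcdhga10 had 0 and 8.92 against 47.1 and 57.7, and Pcdhga7 was listed at 0 in both control libraries with IAA and averaged 11.5 ± 10.8 (SD, n = 2) in the mutated ones. Libraries of mutated CTCF lay above those of the control in each. Pcdhga2 and Pcdhga7, near 0 in the control with IAA, passed the filter on the mean over the 12 libraries only through groups with higher values. The filter thus favours members that are higher outside that control, and the share of 10 in 15 is a description.

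The median log2 difference of the 15 was 1.86, or 1.37 when the 3 genes with both control libraries at or below 3 were set to a floor of 3. In wild-type CTCF with IAA 7 of the 15 were higher than in the control (3.98% of all genes), and against wild-type CTCF the lowest adjusted p of a member was 0.084 (limma). By the annotation the genes of the gamma cluster share their last exons, so the counting may have split reads between them, and the levels of single members are uncertain. The count of 10 depends on each of the 4 libraries: it fell to 4 without replicate 1 and to 3 without replicate 2 of mutated CTCF, and to 3 without replicate 1 and to 5 without replicate 2 of the control. Pcdhga7 lost its call in 3 of these 4 fits, Pcdhga10 in 2 and Pcdhga2 in none. With only the 4 libraries in the fit 2 were called, and among the 3 members with a mean of at least 100 none was.

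**Figure D5:**
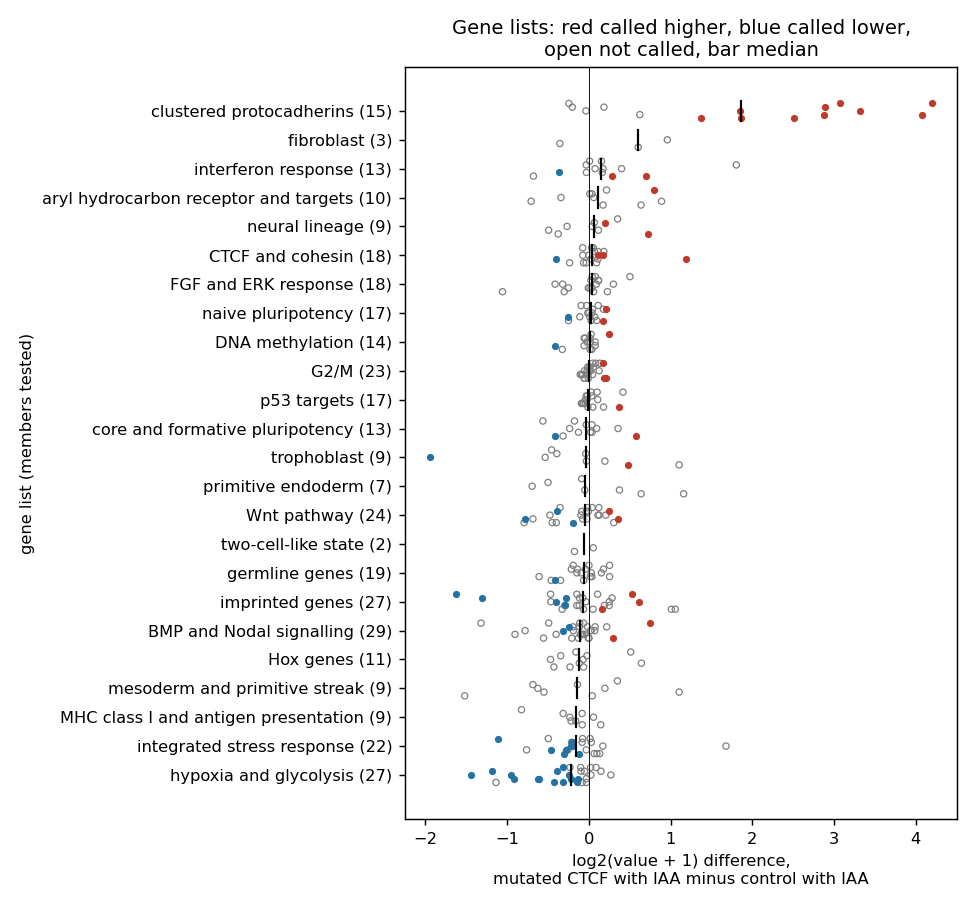
Log2(value + 1) difference of mutated CTCF with IAA minus control with IAA for each tested member of 24 gene lists, with the number of members in brackets. Red points were called higher, blue points lower, open points were not called, and the bar is the median, which lies at 1.86 for clustered protocadherins and at -0.21 for hypoxia and glycolysis.

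Genes of the pluripotent state differed little, and their counts stand beside 4.16% of all genes higher and 2.34% lower. Of 17 naive pluripotency genes, Fgf4 (3705 and 3739 against 4558 and 4099) and Klf4 (3655 and 3418 against 3941 and 4003) were higher and Klf5 (3602 and 3622 against 3029 and 3026) lower. All 3 differences were of at most 0.25 on the log2 scale, and each call was lost without 1 or more of the libraries. Among 13 core and formative genes, Utf1, a chromatin factor of undifferentiated cells, had 79.4 and 76.1 in the control with IAA and 106 and 127 in mutated CTCF with IAA. It stayed far below the untreated 498 and 495, so the groups with IAA lay close to each other. Its call was lost in 3 of 4 fits that left out a library. Dnmt3a, a de novo DNA methyltransferase, was lower (888 and 738 against 594 and 617), a call lost in 3 of the 4 fits too.

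Cyp1a1, a target of the aryl hydrocarbon receptor that metabolises indoles, was higher. It had 883 and 833 in the control with IAA and 1553 and 1429 in mutated CTCF with IAA, beside 109 and 105 in the untreated control and 142 and 138 in the libraries titled as mutated CTCF without IAA. The log2 difference was 0.80 ± 0.10 (adjusted p = 0.00083, limma), and 0.75 against wild-type CTCF with IAA (adjusted p = 0.0043, limma), whose libraries had 833 and 946. By level the libraries titled as treated and as untreated fell into separate ranges, including the 4 whose treatment label differs from the title. Of the other 9 members tested of that list none was called.

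The counts of the lists that follow are to be read beside 4.16% of all genes higher and 2.34% lower. Of 18 genes of CTCF and cohesin 3 were higher (16.7%), Ctcf among them, and 1 lower (5.56%). Pds5a and Wapl, which help release cohesin from DNA, rose by 0.18 and 0.12, and the meiotic subunit Stag3 fell by 0.41 on the log2 scale. The call of Pds5a was lost in all 4 fits that left out a library, and those of Wapl and Stag3 in 3. Of 27 imprinted genes 3 were higher (11.1%: Slc38a4, H13 and Igf2r) and 5 lower (18.5%: Mest, Plagl1, Gnas, Peg3 and Snrpn), with a median near 0. Slc38a4, an amino acid transporter, had 319 and 362 against 522 and 517, and lost its call in 1 of the 4 fits, H13 in 2. Of 24 Wnt pathway genes, the receptors Fzd2 and Fzd7 were among 3 that were lower, and the secreted antagonist Sfrp1 (2591 and 2527 against 3269 and 3283) and the cyclin Ccnd1 were the 2 that were higher. Fzd2 lost its call in 3 of the 4 fits and Ccnd1 in 2, while Sfrp1 and Fzd7 kept theirs. Of 29 BMP and Nodal genes, Nodal and the BMP target Id3 were higher and the Nodal antagonists Lefty1 and Lefty2 lower. The calls of Id3 and Lefty1 were lost in all 4 fits, that of Lefty2 in 3 and that of Nodal in 2. Lefty2 had 1867 and 1797 in the control with IAA, 1564 and 1543 with mutated CTCF and 2576 and 2502 with wild-type CTCF.

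Among interferon response genes, Ifitm3, which encodes a membrane protein that restricts viruses, rose and Stat2, a signal transducer, fell, but the call of Stat2 was lost in all 4 fits that left out a library and that of Ifitm3 in 3. Cdkn1a, an inhibitor of cyclin-dependent kinases, was the only one called of 17 p53 targets (6.5% of all genes were called), with 2007 and 1967 against 2485 and 2661 and an untreated level of 3542 and 3539. Mki67, Cenpf and Top2a rose by 0.20, 0.19 and 0.17, 3 of 23 genes of G2 and mitosis (4.16% of all genes were higher), and the call of Cenpf was lost in all 4 fits. Of 9 neural lineage genes Map2 and Tubb3 were higher, and of 9 trophoblast genes Krt8 was higher and Gata2 lower. Of all genes 4.16% were higher and 2.34% lower. Each of these lineage genes was called only with all 4 libraries. None of the 9 mesoderm, 7 primitive endoderm, 3 fibroblast, 2 two-cell-like, 11 Hox, 18 FGF and ERK or 9 MHC class I genes tested was called by limma, and 6 of these 59 genes had an unadjusted p under 0.05.

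Against wild-type CTCF under IAA, 314 genes were called with mutated CTCF (2.25% of those tested), 150 higher (1.08%) and 164 lower (1.18%). None of the 14 largest rises against the control was among them (lowest adjusted p 0.13, Tex261). Man2b2 differed most, at 189 and 229 beside 156 and 130 in wild-type CTCF (log2 difference 0.55, adjusted p = 0.19, limma), and Cc2d2a was at -0.19. A p that misses the threshold does not show that the 2 forms act alike. Of the 410 genes lower after CTCF degradation, 4 were higher and 10 lower in mutated than in wild-type CTCF. The count of 314 was sensitive to single libraries, with 76 when replicate 2 of mutated CTCF with IAA was left out, 91 without replicate 1, and 91 with only those 4 libraries in the fit.

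Whether the difference between mutated CTCF and control depended on IAA was tested as a difference of differences, which was called for 228 genes (1.64%), 147 upwards (1.05%) and 81 downwards (0.581%). It was called for all 14 largest rises and for 74 of the 410 genes lower after CTCF degradation, with none downwards. Adprhl2 differed from the control by 2.58 with IAA and by -0.09 without it, and Mrps2 by 2.13 and 0.12. Among the 14 largest falls it was called for Slc16a3, Ocel1, Bnip3, Trim7 and Lxn. Trim7, a ubiquitin ligase of the tripartite motif family, had 158 and 190 in the control with IAA against 80.1 and 74.1, but 127 and 104 in the untreated control against 138 and 159. The 14 rises and 14 falls were chosen by the difference with IAA, which is part of this test. Their calls are therefore a description and no separate support. This test uses the libraries titled as mutated CTCF without IAA, whose treatment label says otherwise.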

How the data were processed

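RNA sequencing values were the authors' deposited normalised counts per gene, a signal that is never negative. Per the submitters' processing notes, Trim Galore, Bowtie2, STAR, RSEM and DESeq2 and the build mm10 were used; their roles and versions, strand use and annotation are not given in the sources used here. Whole reads could not be recovered from them, so no count test was run and the depth in reads is unknown. All 12 libraries of the overexpression table (6 groups of 2, by title) entered 1 fit with limma 3.58.1 in R 4.3.3 on log2(value + 1), with the mean-variance trend and 6 residual degrees of freedom. Genes with a mean of at least 10 were tested, and the Benjamini-Hochberg adjusted p had to be under 0.05 for a call. An exact permutation test of 2 against 2 cannot go below 0.333. Log2 differences are on the log2(value + 1) scale and understate changes of low genes.

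Lists of genes changed by CTCF degradation came from the same fit of the separate CTCF degradation table, whose 1 incomplete last line was left out. The code was run on a simulated table of 13960 genes with equal dispersion for all and changes only in the mutated group with IAA. There it called 42 of 81 genes changed 1.5-fold, 49 of 57 changed 2-fold, 62 of 62 changed 4-fold and 9 of 13760 unchanged ones. These rates hold for that setting and were not measured on the real data. Positions and overlaps are those of GENCODE M21 (GRCm38), and promoters those of RefSeq. Of 2 identifiers named Aldoa the more abundant was used.

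Genes named are the 14 largest rises and falls among called genes with non-overlapping libraries, an average of 100 or more in the higher group and a settled symbol, up to 4 called members per gene list, and up to 6 per degradation list. Members, lists and rules were chosen with earlier results of these data known; other called members of lists are given by name only. Replicate differences of the compared groups correlated at -0.003 across genes, and the numbers do not pair the libraries. Alternatives were other pseudocounts, filters, scalings, thresholds and groupings, a replicate block, and leaving out each library. One called member of the interferon list is not reported here.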

Additional observations from a re-analysis of the deposited data

Results flagged for a closer look

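The difference between mutated CTCF and control was not the same with and without IAA for 228 genes (limma, test of the difference of differences, adjusted p under 0.05). The values here are that change on the log2 scale, the difference from control with IAA minus the one without. They rest on 2 libraries titled as mutated CTCF without IAA but labelled as treated. The largest rises and falls were chosen by the difference with IAA, which is part of this change. Their sizes here are a description. The change was 2.01 for Mrps2, 2.68 for Adprhl2 and 2.43 for Dph7. It was 2.47 for Dennd6b, 2.47 for R3hcc1, 2.43 for Cc2d2a and 2.37 for Det1. It was 2.24 for Snx19, 2.23 for Snhg17, 2.12 for Tex261, 2.11 for Tstd3 and 2.11 for Tirap. Man2b2 changed by 2.01 and Mob3b by 1.56. The low-level Pcdhga2, with 0.921 and 0 in the control with IAA, changed by 4.27, a size that depends on the pseudocount.

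Smaller changes were found for Cdkn1a, at 0.55, and Nupr1, at 0.45, which was lower with mutated CTCF both without IAA (410 and 411 against 692 and 670) and with it. Downward changes were found for Trim7 (-1.53), Slc16a3 (-1.33), Bnip3 (-1.32), Ocel1 (-1.21), Ccdc136 (-1.02) and Lxn (-0.91). Ccdc136 had 964 and 856 in the control with IAA, 536 and 458 in mutated CTCF with IAA and 501 and 466 in the untreated control.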

How the results depend on the processing

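The 906 calls (580 higher, 326 lower) became 552 (384 and 168) with only the compared groups in the fit, 413 (297 and 116) with groups formed by the treatment label, 389 (294 and 95) at an adjusted p under 0.01, 135 (100 and 35) at 2-fold, and 530 (315 and 215) without the mean-variance trend. Leaving out 1 library gave 366 to 497 (271 to 351 higher, 95 to 148 lower). The 110 genes of the list lower after CTCF degradation became 221 with no fold threshold on the list. The 15 of the list higher after degradation became 74 with no such threshold, 7 by the treatment label, 7 at an adjusted p under 0.01, 4 at 2-fold and 7 to 9 without 1 library. The 314 calls against wild-type CTCF became 91 with only those groups, 80 at an adjusted p under 0.01, 29 at 2-fold, 92 without the trend and 76 to 218 without 1 library. The 228 calls of the difference of differences became 124 at an adjusted p under 0.01, 73 at 2-fold, 119 without the trend and 148 to 188 without 1 library. For these last 2 comparisons no value was possible where the libraries with disagreeing labels were dropped or regrouped, because a group was then missing. By the treatment label Tubb3 turned to -0.104 (adjusted p = 0.8957) and Cyp1a1 to -0.906 (adjusted p = 0.7663), and 35 other values of named genes lost their call. The cause of these changes was not tested, except that fewer libraries or a stricter threshold enter by construction.

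With a replicate block there were 872 calls (565 higher, 307 lower), 108 and 12 of the list members, 245 against wild-type CTCF and 214 for the difference of differences. The replicate numbers do not pair the libraries, with correlations of replicate differences between groups of -0.063 to 0.102. Other pseudocounts, filters and scalings gave 784 to 924 calls, and quantile normalisation moved the share of higher calls from 64% to 56.5%. Values of genes below a mean of 100, the protocadherins among them, are the least precise. Of the 14 largest rises all kept their call without any 1 library, and of the 14 largest falls 9 did. Of all 74 genes chosen for naming 34 did, 40 lost the call in 1 or more of the 4 fits, 17 of them in all 4, and none changed sign.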

Other observations

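Some genes higher with mutated CTCF lay next to each other among the genes tested; these were picked after their values were seen, and no test of their number was made. Bhmt, Bhmt2 and Dmgdh, enzymes of betaine and dimethylglycine metabolism, lie side by side on chromosome 13. Bhmt2 had 134 and 125 in the control with IAA, 189 and 188 in mutated CTCF with IAA and 207 and 205 in the untreated control, a log2 difference of 0.54. Dmgdh had 533 and 523 against 754 and 735, and Bhmt rose by 0.37. The mutated libraries lay above the controls with IAA for all 3, and no called gene had overlapping libraries.

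The zinc finger genes Zfp786 and Zfp398 lie beside Pdia4 on chromosome 6. Zfp398 had 52.1 and 58.6 in the control with IAA, 216 and 197 in mutated CTCF with IAA and 249 and 265 in the untreated control, a rise of 1.88 (adjusted p = 1.2e-05, limma). Zfp786 rose by 1.77 from 37.9 and 20.9 to 80.3 and 122, while Pdia4 differed by 0.15. On chromosome 15, Ankrd46 rose by 1.07, and its neighbours Pabpc1 and Ywhaz differed by 0.11 and 0.10.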
